A study of Mus musculus with 27 samples.

Results

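Cathepsins are proteases of the lysosome, and 10 of them, Ctsa, Ctsb, Ctsc, Ctsd, Ctsf, Ctsh, Ctsk, Ctsl, Ctss and Ctsz, were followed in the tibialis anterior muscle of the mouse after volumetric muscle loss (VML), an injury in which a piece of the muscle is cut out. They were taken by gene name from a table of 54532 genes and were chosen by their measured FPKM in all 5 groups, with earlier results of these data known, so their differences between groups are given below as a description with no p-value. FPKM is the number of fragments scaled by gene length and by the size of the library, which allows levels to be compared between genes of different length. All 10 passed the filter on low values (5 or more samples with an FPKM of 0.5 or higher), as did 14630 genes in all.

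The muscles came from C57BL/6 male mice of 8 weeks, with 40% of the muscle excised in the injured groups. The groups held 5 uninjured muscles and 5, 6, 6 and 5 muscles at day 3, day 7, day 14 and day 21 after VML, and the labels name no genetic change and no other treatment in any of them. The submitters' design text describes the excision as unilateral and the study's methods as bilateral, and the labels do not settle which holds. RNA with a poly(A) tail was sequenced from each muscle without keeping the strand, at 14376395 to 24436763 reads per sample. Each library is a whole muscle, in which more cells of a type and more RNA per cell cannot be told apart.

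In 2 libraries the labels and the values went apart. The library labelled day 3 replicate 5 lay nearest to the mean of day 7 over all tested genes, and the library labelled day 7 replicate 5 lay nearest to the mean of day 3. These libraries, called the pair below, were kept under their labels, and values without both are given beside the results that they move. The pair was picked by these same values, so leaving it out in itself widens the difference between day 3 and day 7. In all, 9 of the 27 samples lay nearer to the mean of another group than to their own, and the other 7 were labelled day 7, 14 or 21. Of these, day 7 replicate 3 lay nearest to uninjured muscle, and the rest lay nearest to day 7, 14 or 21. All of these were kept under their labels. The muscle fibre markers Acta1, Ckm, Myh4, Myh1, Ttn, Mb, Tnnt3 and Actn3 were above 0 in every library, with a summed FPKM of 18020 to 73519 over all samples, so markers of the labelled tissue were present.

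Most cathepsins are made as inactive precursors, carried to the lysosome by mannose 6-phosphate receptors and cleaved to the active enzyme in its acid interior, where they break down proteins that the cell has taken up or set aside for removal. Ctsb, Ctsc, Ctsf, Ctsh, Ctsk, Ctsl, Ctss and Ctsz encode cysteine proteases of the papain family, Ctsd an aspartic protease and Ctsa a serine carboxypeptidase. Macrophages carry many of them, and some are also released and cut matrix proteins outside the cell. The MiT/TFE transcription factors drive many lysosomal genes through an E-box with the core CACGTG, and PU.1, the factor that sets the macrophage program, reads a purine-rich site with the core GAGGAA.

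Promoters of 8 of the 10 genes were found in RefSeq (assembly GRCm38.p6), each of 300 bases, 250 before and 50 after a start site; none was found for Ctsb and Ctsh, and Ctsa has 2. The sequences of 5 are printed because they include the gene with the greatest difference from uninjured muscle (Ctss), its neighbour on chromosome 3 (Ctsk), the gene that was lower after injury (Ctsf), the most abundant cathepsin (Ctsd) and the serine carboxypeptidase (Ctsa, at the second of its start sites). Each runs 5′ to 3′ along the strand of the gene, and capitals mark matches on either strand to CACGTG, to the longer TCACGTGA that contains it, to GAGGAAGT or to TATAAA.
Ctss, chr3:95526536-95526835, plus strand: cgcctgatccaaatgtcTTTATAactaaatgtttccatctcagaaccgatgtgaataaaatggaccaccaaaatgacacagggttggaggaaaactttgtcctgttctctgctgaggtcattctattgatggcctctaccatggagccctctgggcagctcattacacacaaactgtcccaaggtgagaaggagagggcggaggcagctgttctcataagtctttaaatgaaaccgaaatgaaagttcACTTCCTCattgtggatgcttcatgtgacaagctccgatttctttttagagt
Ctsk, chr3:95498960-95499259, plus strand: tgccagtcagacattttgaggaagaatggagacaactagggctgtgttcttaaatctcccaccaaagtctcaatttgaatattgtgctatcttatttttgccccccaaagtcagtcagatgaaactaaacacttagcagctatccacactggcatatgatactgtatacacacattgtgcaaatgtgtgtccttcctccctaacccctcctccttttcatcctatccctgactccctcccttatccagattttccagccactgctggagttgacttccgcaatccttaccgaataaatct
Ctsf, chr19:4854915-4855214, plus strand: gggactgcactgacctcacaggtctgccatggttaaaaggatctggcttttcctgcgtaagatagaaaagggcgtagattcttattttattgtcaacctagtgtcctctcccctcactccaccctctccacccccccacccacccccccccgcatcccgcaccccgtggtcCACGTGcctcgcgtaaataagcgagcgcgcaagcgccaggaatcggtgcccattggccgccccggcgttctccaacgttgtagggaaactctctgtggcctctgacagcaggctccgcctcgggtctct
Ctsd, chr7:142387778-142388077, minus strand: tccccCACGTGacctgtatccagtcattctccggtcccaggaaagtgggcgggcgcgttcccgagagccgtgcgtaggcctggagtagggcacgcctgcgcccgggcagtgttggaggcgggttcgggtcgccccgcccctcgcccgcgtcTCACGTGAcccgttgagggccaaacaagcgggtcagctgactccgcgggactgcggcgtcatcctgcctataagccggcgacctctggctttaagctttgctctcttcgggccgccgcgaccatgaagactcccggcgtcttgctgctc
Ctsa, chr2:164833523-164833822, plus strand: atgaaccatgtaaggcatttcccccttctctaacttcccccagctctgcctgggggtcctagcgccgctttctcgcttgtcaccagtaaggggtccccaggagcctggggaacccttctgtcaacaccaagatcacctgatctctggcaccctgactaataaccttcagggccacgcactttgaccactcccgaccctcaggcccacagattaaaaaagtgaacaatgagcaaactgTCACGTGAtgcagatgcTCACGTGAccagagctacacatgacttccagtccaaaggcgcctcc

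The window of Ctss held GAGGAAGT on the opposite strand, across its start site, and TATAAA on the opposite strand at its far end. The window of Ctsd held CACGTG at 2 places, 1 of them as TCACGTGA, and that of Ctsa held TCACGTGA 2 times. The window of Ctsf held CACGTG 1 time and that of Ctsk held none of the 4 motifs. The shorter core GAGGAA was not searched for, and it stands unmarked in the windows of Ctsk and Ctss. Of the promoters not printed, Ctsc held GAGGAAGT, Ctsl held CACGTG, and Ctsz and the other window of Ctsa held none. Over all 32851 RefSeq promoters of this length, 7.15% held CACGTG, 0.974% TCACGTGA, 3.2% GAGGAAGT and 13.6% TATAAA, against 4, 2, 2 and 1 of the 9 windows of the cathepsins. A match describes the letters of these windows and shows no binding.

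In uninjured muscle the lysosomal protease RNA was mostly Ctsd. Its FPKM averaged 283 ± 29.7 (SD, n = 5), which was 63.6% ± 2.03 of the summed FPKM of the 10 cathepsins. Ctsb followed at 64.8 ± 1.93, Ctsz at 32.6 ± 5.37 and Ctsa at 19.3 ± 1.02, and each of the first 3 lay above the next in all 5 muscles with no overlap of the ranges. Ctsa, Ctsf (16.98 ± 2.61) and Ctsl (15.2 ± 2.07) came next, and Ctsf overlapped with both of the others. The lowest 4 were Ctsc at 4.29 ± 0.925, Ctsk at 4.15 ± 1.52, Ctss at 2.20 ± 0.733 and Ctsh at 1.69 ± 0.522, and each of them overlapped with the next. The least read of the 10 in any sample was Ctss, with 31 reads, followed by Ctsk with 36 and Ctsh with 51, so that the uninjured levels of these genes rest on few reads.

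After injury the summed FPKM of the 10 cathepsins was 1486 ± 647 at day 3, against 445 ± 34.0 in uninjured muscle (SD, n = 5 each), and 776 ± 672 (n = 6) at day 7, 416 ± 76.1 (n = 6) at day 14 and 414 ± 42.7 (n = 5) at day 21. The lowest of the day 3 muscles, the library labelled replicate 5, had 518 and the highest 2148, and the uninjured muscles lay between 414 and 497. At day 7 the library labelled replicate 5 had 2129, and the lowest of the 6 had 352. Without the pair the mean was 1728 ± 410.2 (n = 4) at day 3 and 505 ± 127 (n = 5) at day 7.

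**Figure D1:**
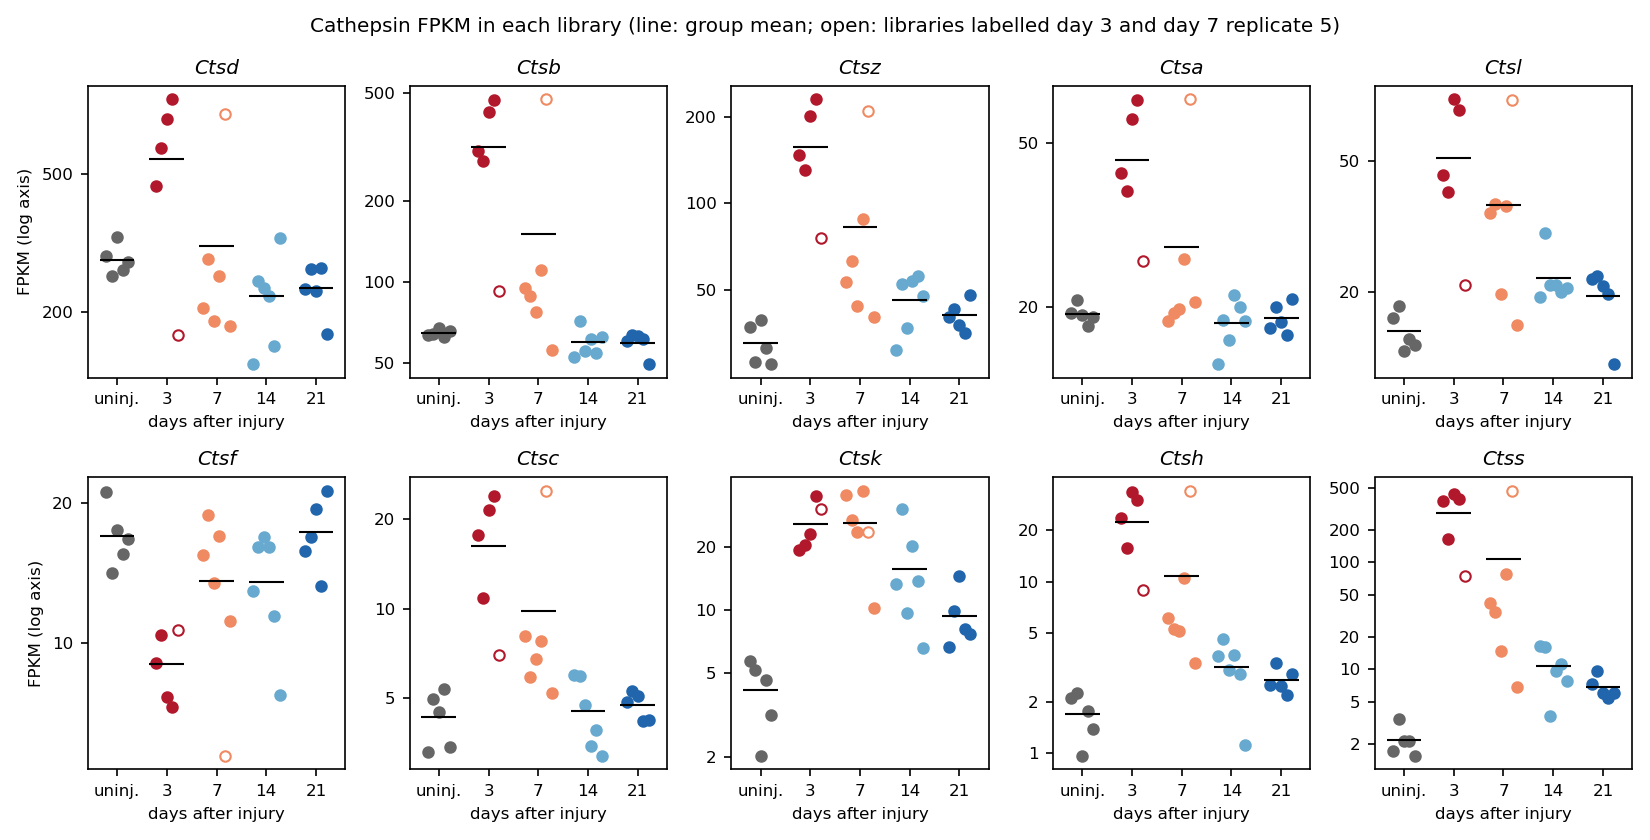
FPKM of the 10 cathepsins in each of the 27 libraries, on a log axis, by group (uninjured, then days after VML); 1 point is 1 muscle, the line is the group mean, and open points are the pair of libraries whose values lie near the other's group. Ctss spans 1.56 to 468 FPKM, Ctsf is lowest at day 3, and Ctsk stays near its day 3 level at day 7.

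Ctss encodes cathepsin S, which antigen-presenting cells use to trim the invariant chain of class II molecules and which stays active near neutral pH. Its FPKM was 1.71, 3.42, 2.13, 2.15 and 1.56 in the uninjured muscles and 379, 165, 436, 390 and 74.5 in replicates 1 to 5 of day 3. At day 7 the lowest, median and highest of 6 muscles were 6.80, 38.2 and 468, the last in the library labelled replicate 5, and at day 14 they were 3.69, 10.5 and 16.6. At day 21 the 5 muscles had 7.33, 9.62, 6.02, 5.44 and 6.00. Every injured muscle at each of the 4 times lay above every uninjured muscle. The difference from uninjured muscle on days 3, 7, 14 and 21 was 6.26 ± 0.67, 3.80 ± 0.64, 1.79 ± 0.64 and 1.31 ± 0.67 (log2(FPKM + 1), estimate ± SE), and without the pair it was 6.68 on day 3 and 3.12 on day 7. The ratio of mean FPKM was 132 at day 3, and 156 without the pair.

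Ctsh encodes cathepsin H, an aminopeptidase. The uninjured muscles had 2.10, 2.23, 0.966, 1.75 and 1.38 FPKM and the day 3 muscles 23.6, 15.7, 33.1, 29.998 and 8.90. The day 3 and day 7 muscles all lay above the uninjured ones, with 3.34, 5.75 and 33.8 as the lowest, median and highest at day 7. The difference from uninjured muscle was 3.00 ± 0.39 (log2(FPKM + 1), ± SE) at day 3, 1.75 ± 0.37 at day 7 and 0.47 ± 0.39 at day 21, where 4 of 5 muscles lay above all uninjured ones. Without the pair it was 3.28 at day 3 and 1.35 at day 7.

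Ctsb encodes an endopeptidase that can also remove dipeptides from the end of a chain, and it was the second most abundant of the 10 in each group. Its uninjured values were close together, at 63.6, 64.1, 67.5, 62.7 and 66.1 FPKM, and the day 3 muscles had 304, 281, 426, 471 and 92.8. At day 7 the lowest, median and highest were 56.2, 91.5 and 475. Day 3 lay wholly above uninjured muscle, and day 7 lay on both sides of it. The difference was 2.07 ± 0.39 (log2(FPKM + 1), ± SE) at day 3 and 0.78 ± 0.37 at day 7, and 2.46 and 0.36 without the pair. At day 14 and day 21 the difference was -0.12 at each time (0.35 and 0.07 when the FPKM of every library was rescaled to a common sum), with means of 59.8 ± 7.15 (SD, n = 6) and 59.6 ± 5.75 (n = 5) FPKM.

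Ctsz, a carboxypeptidase, Ctsl, an endopeptidase, and Ctsc, a dipeptidyl peptidase that activates the serine proteases of immune granules, also had their highest means at day 3. Ctsz ranged over 27.5 to 39.4 FPKM in uninjured muscle and 75.8 to 231 at day 3, with a difference of 2.15 ± 0.32 (log2(FPKM + 1), ± SE), and 2.39 without the pair. Ctsl ranged over 13.2 to 18.1 and 21.1 to 76.8, with a difference of 1.55 ± 0.31, and 1.83 without the pair. Ctsc ranged over 3.27 to 5.36 and 6.999 to 24.0004, with a difference of 1.60 ± 0.30, and 1.85 without the pair. None of the 3 overlapped between day 3 and uninjured muscle. Here and for the other cathepsins, the share of all tested genes that separate as fully was not counted. Such separation is therefore a description, and is not read as particular to these genes. At day 14 all 6 muscles still had more Ctsl than any uninjured muscle, at 19.4 to 30.1 FPKM, whereas Ctsc (3.18 to 5.96) lay within or close to the uninjured range.

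Ctsa encodes the carboxypeptidase that also holds beta-galactosidase and neuraminidase together in the lysosome. Its uninjured range was 17.99 to 20.8 FPKM and its day 3 range 25.9 to 63.5, with a difference of 1.13 ± 0.24 (log2(FPKM + 1), ± SE; 1.31 without the pair), and at day 21 it had 17.1 to 20.9. Ctsd encodes the main aspartic protease of the lysosome. The uninjured muscles had 290, 253, 330, 265 and 279 FPKM of Ctsd and the day 3 muscles 463, 596, 721, 826 and 171. Replicates 1 to 4 of day 3 lay above all uninjured muscles and the library labelled replicate 5 below all of them, and the difference was 0.79 ± 0.35 with the pair and 1.17 ± 0.22 without it, and 1.62 with the pair when FPKM was rescaled to a common sum.

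At the later times most muscles had less Ctsd than the uninjured muscles, on the scale of the deposited FPKM. The lowest, median and highest at day 14 were 141, 229 and 328 FPKM, with 5 of 6 below every uninjured muscle, and the day 21 muscles had 233, 267, 230, 267 and 173, with 3 of 5 below. The difference from uninjured muscle was -0.40 ± 0.34 at day 14 and -0.29 ± 0.35 at day 21 (log2(FPKM + 1), ± SE), each close to its standard error. With FPKM rescaled to a common sum these became 0.07 and -0.09 (0.29 and 0.12 for the median of all tested genes), so the sign at day 14 rests on the scale.

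Ctsf, a cysteine cathepsin with an unusually long propeptide, was the 1 member with its lowest mean at day 3. Its FPKM was 21.1, 14.1, 17.5, 15.5 and 16.7 in uninjured muscle and 9.07, 10.4, 7.66, 7.29 and 10.7 at day 3. All 5 day 3 muscles lay below all 5 uninjured ones. At day 7 the lowest of the 6 muscles, 5.73, was the library labelled replicate 5, and the others had 11.1 to 18.9. The difference from uninjured muscle on days 3, 7, 14 and 21 was -0.85 ± 0.23, -0.37 ± 0.22, -0.34 ± 0.22 and 0.02 ± 0.23 (log2(FPKM + 1), ± SE), and without the pair it was -0.90 on day 3 and -0.16 on day 7. These values depend on how the libraries are scaled. With FPKM rescaled to a common sum the difference was -0.08 at day 3 (0.51 for the median of all tested genes) and 0.31 at day 7 (0.48 for all genes), and with each library's own total of reads as the denominator it was -0.23 (0.40) and 0.15 (0.36), so that on days 3 and 7 Ctsf lay below the median of all genes on both scales but not always below its uninjured level. The summed FPKM of the 8 muscle fibre markers also had its lowest values at days 3 and 7, at 18020 to 39918 at day 3 against 57687 to 73519 in uninjured muscle. At day 3, 7 of 8 of those markers were called lower, beside 19.8% of all genes. Their part in the level of Ctsf was not tested.

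Ctsk encodes cathepsin K, which cleaves the triple helix of collagen and is best known from bone-resorbing osteoclasts. Its mean at day 7 was close to that at day 3. The uninjured muscles had 5.71, 5.19, 2.03, 4.67 and 3.16 FPKM, the day 3 muscles 19.3, 20.4, 23.01, 34.98 and 30.03, and the lowest, median and highest at day 7 were 10.2, 25.2 and 36.9. At day 14 these were 6.56, 13.5 and 30.1, and the day 21 muscles had 6.70, 9.89, 14.4, 8.14 and 7.70. Every injured muscle at every time lay above every uninjured muscle. Over days 3, 7, 14 and 21 its difference from uninjured muscle was 2.39 ± 0.33, 2.35 ± 0.31, 1.60 ± 0.31 and 1.02 ± 0.33 (log2(FPKM + 1), ± SE). Day 7 differed from day 3 by -0.04 ± 0.31, and by 0.03 ± 0.36 without the pair.

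Ctsk and Ctss lie next to each other on chromosome 3, on the plus strand (GRCm38), Ctsk at 95499256 to 95509362 and Ctss at 95526786 to 95556403, with 17423 bases between them. Without the pair, Ctss was lower at day 7 than at day 3 by -3.57 ± 0.47 (log2(FPKM + 1), ± SE), whereas Ctsk differed by 0.03. The difference between the genes was not tested, since the genes were chosen with their values known.

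**Figure D2:**
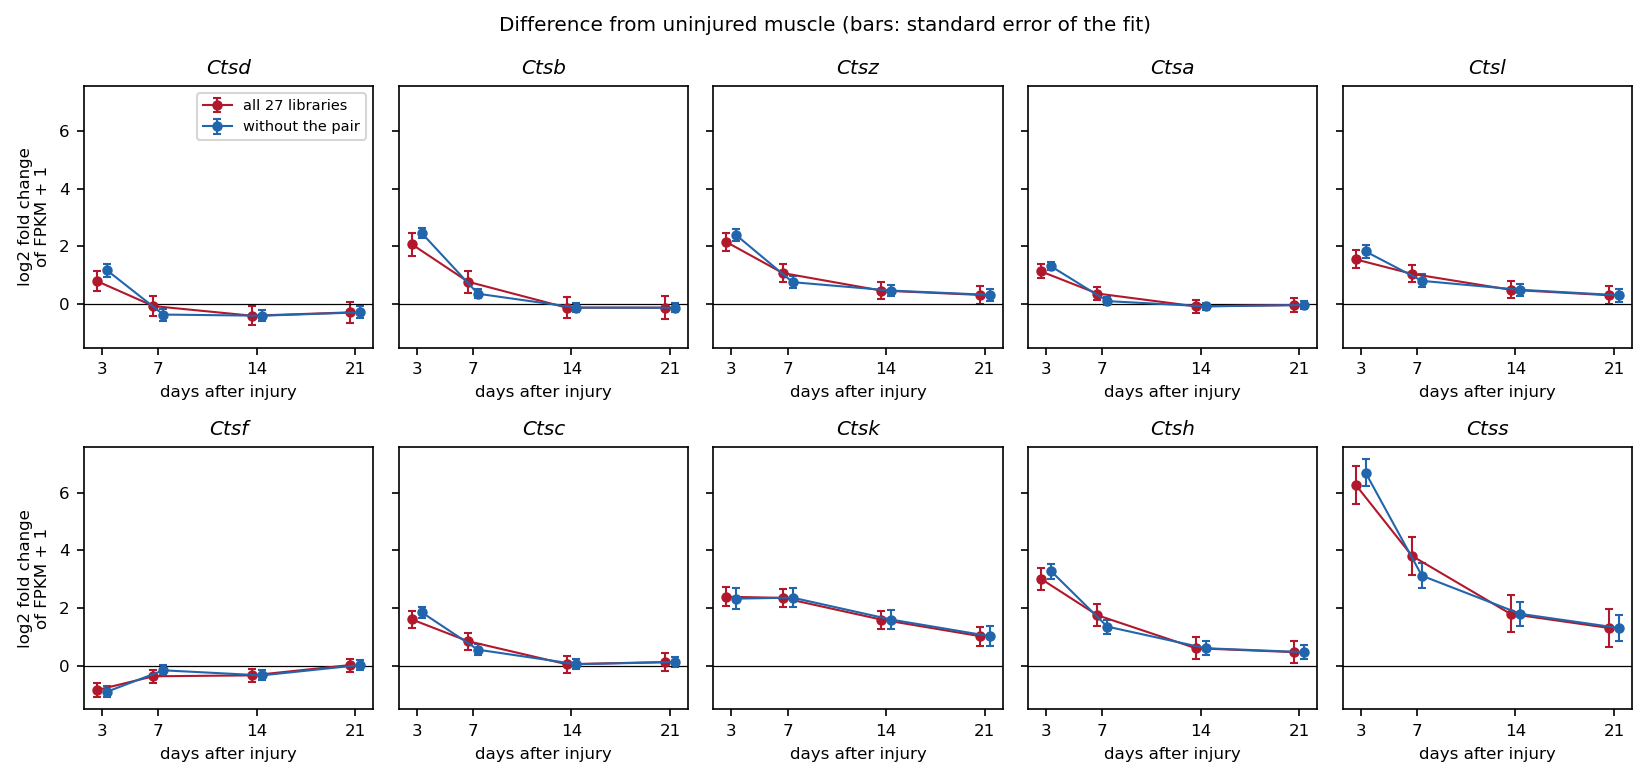
Difference of each cathepsin from uninjured muscle at day 3, 7, 14 and 21, as the log2 fold change of FPKM + 1 with the standard error of the fit as bars; red uses all 27 libraries and blue leaves out the pair labelled replicate 5 at days 3 and 7. Ctss reaches 6.26 at day 3, Ctsf is at -0.85 at day 3, and Ctsk is at 2.39 and 2.35 at days 3 and 7.

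The number of cathepsins called by limma, a linear model fitted across all tested genes (adjusted p under 0.05, Benjamini-Hochberg over all genes of a comparison), restates the values that chose them, and nothing is read from it. At day 3, 8 of 10 were called higher, beside 23.4% of all genes, and Ctsf was called lower, beside 19.8%, with a median difference of 1.84 over the 10 against 0.01 over all tested genes (log2(FPKM + 1)). Ctsd was not called with all samples and was called higher without the pair, for 9 of 10 beside 23.4%, and Ctsf stayed lower beside 19.7%. At day 7, 6 of 10 (Ctsc, Ctsh, Ctsk, Ctsl, Ctss and Ctsz) were called higher beside 15%, and 0 lower beside 14.4%. Without the pair, 6 were called higher beside 12.5% and 0 lower beside 11.1%. At an unadjusted p under 0.05 the count of lower calls by limma at day 7 was also 0, and with voom, another weighting of the same model, it was 0. Leaving out uninjured replicate 1, uninjured replicate 5 or the library labelled day 7 replicate 5 ended the call of Ctsc, for 5 in all, and leaving out day 7 replicate 6 added Ctsb, for 7.

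At day 14, Ctsk and Ctss were called higher beside 9.02% of all genes, and 0 cathepsins lower beside 11.3%. Without the pair the backgrounds were 11.8% and 12.6% and the counts were again 2 and 0. Limma called 0 lower at an unadjusted p under 0.05 as well, and voom called 0 lower and Ctsk alone higher. Ctsk was called at day 14 in each of the 27 fits that left out 1 library, and Ctss in 5 of them, those without day 3 replicate 5, day 7 replicate 3, 5 or 6, or day 14 replicate 3. At day 21 limma called 0 higher beside 1.74% and 0 lower beside 1.69%, and 1 cathepsin was higher at an unadjusted p under 0.05. Without the pair the counts by limma were again 0 beside 2.63% and 0 beside 2.36%, and 2 were higher at an unadjusted p under 0.05. No cathepsin was lower at an unadjusted p under 0.05 at day 21, with or without the pair, and voom called 0 in either direction. Ctsk was called higher at day 21 without day 7 replicate 6, for 1 in all. Day 21 against day 3 had 9 cathepsins called lower beside 16.2% and Ctsf called higher beside 9.23%, with the same counts without the pair beside 18% and 11.5%.

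The step from day 3 to day 7 depended on the pair. With all samples limma called 0 cathepsins in either direction, beside 0.0478% of genes lower and 0.00% higher, and voom called 0, although 7 were lower and 1 higher at an unadjusted p under 0.05, and the median difference over the 10 was -0.81. Without the pair 8 were called lower beside 11.5% and Ctsf higher beside 3.54%, with a median of -1.41, and Ctsk was not called. Part of this wider step follows from how the pair was picked. Leaving out the library labelled day 3 replicate 5 alone gave 7 lower, and leaving out the one labelled day 7 replicate 5 alone gave 7 lower and Ctsf higher. The differences of day 14 from day 7 ran from -2.01 (Ctss) to 0.03 (Ctsf) over the 10 genes with all samples and were all below 0 without the pair (-1.32 for Ctss, -0.18 for Ctsf), and those of day 21 from day 14 from -0.57 (Ctsk) to 0.36 (Ctsf), on the log2(FPKM + 1) scale.

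The calls also depended on the scale of the libraries. With FPKM rescaled to a common sum, 9 cathepsins, Ctsd among them, were called higher at day 3 and 8 at day 7, and Ctsf was not called lower. Over all genes 6868 were then called higher and 322 lower at day 3, where the deposited scale gave 3417 and 2899, and 6304 and 209 at day 7, where it gave 2189 and 2107. Quantile normalization gave 9 cathepsins higher and Ctsf lower at day 3, with 2774 higher and 3734 lower over all genes. The median of all tested genes at days 3, 7, 14 and 21 was 0.51, 0.48, 0.29 and 0.12 with the common sum and 0.40, 0.36, 0.25 and 0.12 with each library's own total of reads as the denominator, and the median over the 10 cathepsins was 2.62, 1.62, 0.68 and 0.38, and 2.46, 1.45, 0.62 and 0.38

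The makeup of the cathepsin RNA within a library does not depend on the scaling of libraries. Ctsd made up 63.6% ± 2.03 (SD) of the summed FPKM in uninjured muscle, and on days 3, 7, 14 and 21 its share was 37.0% ± 5.42, 43.2% ± 6.49, 52.5% ± 7.81 and 56.3% ± 4.21. Ctss made up 0.5004% ± 0.192 in uninjured muscle, 18.6% ± 5.47 at day 3 and 1.66% ± 0.324 at day 21. Neither of these shares overlapped between uninjured muscle and day 3. Ctsb made up 14.6% ± 0.871 in uninjured muscle and 20.7% ± 1.60 at day 3. The share of Ctsk was highest at day 7, at 4.45% ± 2.11 (5.12% without the pair) against 0.949% ± 0.368 in uninjured muscle, and that of Ctsf lowest at day 3, at 0.841% ± 0.707 against 3.81% ± 0.460 (0.535% at day 3 without the pair). At day 21 the order of the 10 by mean FPKM was Ctsd, Ctsb, Ctsz, Ctsl, Ctsa, Ctsf, Ctsk, Ctss, Ctsc and Ctsh, in which Ctss lay above Ctsc in all 5 muscles, whereas in uninjured muscle its mean lay below that of Ctsc.

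**Figure D3:**
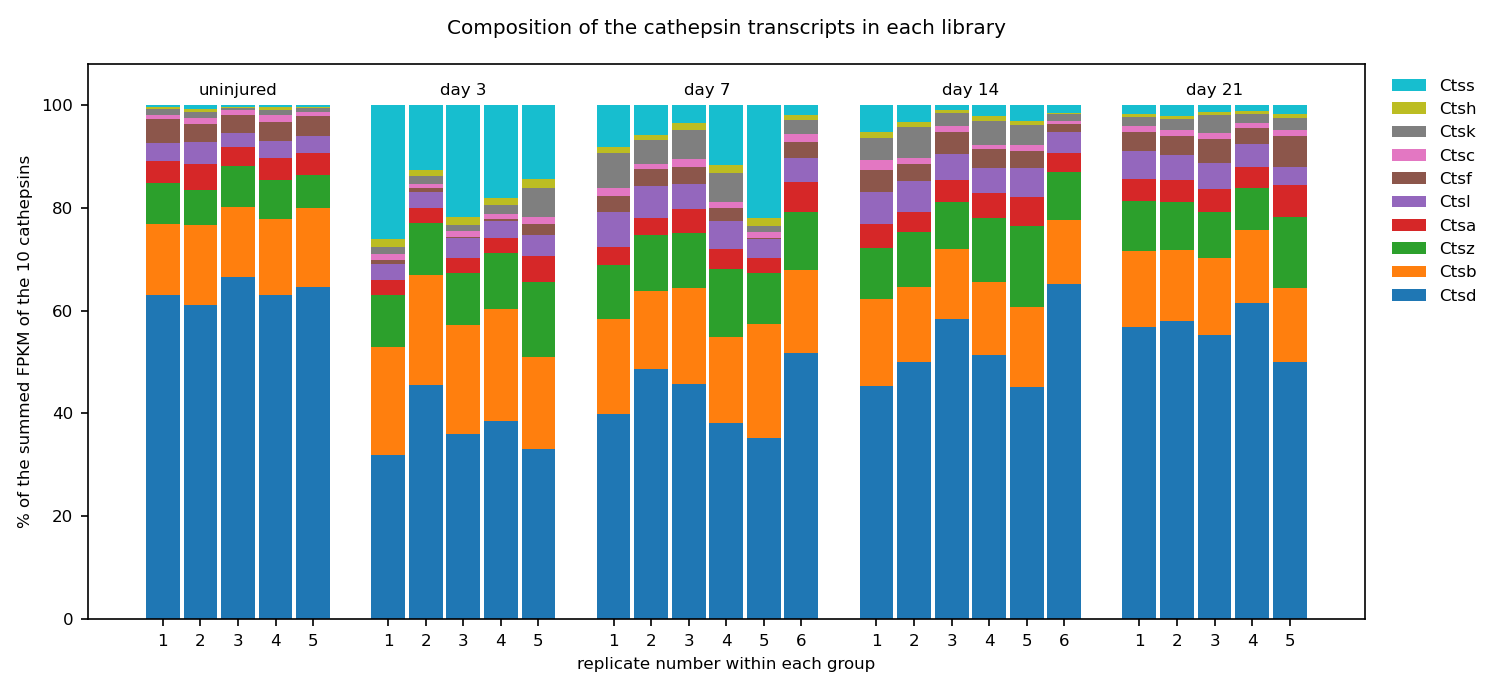
Share of each cathepsin in the summed FPKM of the 10, in percent, with 1 bar for each library, grouped by time after VML. Ctsd (bottom) takes 61.2 to 66.5% in uninjured muscle and 31.9 to 45.6% at day 3, and Ctss (top) takes 12.6 to 26.1% at day 3, and up to 21.98% at day 7 in the library labelled replicate 5.

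Markers of other cell types moved with these levels. Of all genes, 23.4% were called higher at day 3 and 15% at day 7 (23.4% and 12.5% without the pair). All 12 macrophage markers (Adgre1, Cd68, Csf1r, Mrc1, C1qa, C1qb, C1qc, Itgam, Cd14, Lyz2, Mertk and Fcgr1) were called higher at day 3, and their summed FPKM was 34.3 to 48.1 in uninjured muscle, 642 to 3199 at day 3 (1653 or more without the pair), 91.7 to 3086 at day 7 (up to 783 without the pair), 79.0 to 194 at day 14 and 61.9 to 109 at day 21. Of 8 fibroblast markers (Pdgfra, Dcn, Lum, Dpt, Pi16, Col1a1, Col3a1 and Fbln2), 6 were called higher at day 3 and 7 at day 7 (6 and 8 without the pair), with sums of 65.2 to 151 in uninjured muscle and, on days 3, 7 and 21, of 431 to 884 (up to 590 without the pair), 314 to 1172 and 157 to 255. The median macrophage sum was highest at day 3 (2166.4), and the median fibroblast sum was 573 at day 3 and 593 at day 7. The part of either cell type in the cathepsin levels was not tested.

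Of the 5 osteoclast markers, Acp5, which macrophages also express, was the 1 that passed the filter, and Ocstamp, Dcstamp, Calcr and Oscar stayed at or below 1.19 FPKM in every library. The summed FPKM of the 5 was 0.309 to 3.51 in uninjured muscle and 5.07 to 27.7 at day 3 (8.92 or more without the pair). The part of osteoclasts in the cathepsin levels was not tested. Of the 8 neutrophil markers, S100a8, S100a9 and Csf3r passed and were called higher at day 3, beside 23.4% of all genes. The summed level of the list was 20.3 to 37.7 FPKM at day 3 against 0.456 to 4.31 in uninjured muscle, and Ly6g was at 0 in 26 of 27 libraries. Of the 7 lymphocyte markers only Nkg7 passed the filter and it was not called at day 3, with sums of 0.0856 to 1.001 in uninjured muscle and 0.958 to 7.50 at day 3 (up to 1.51 without the pair). The 4 endothelial markers had sums of 55.9 to 67.2 in uninjured muscle and 37.3 to 83.6 at day 3, on the deposited scale. Without the pair day 3 had 37.3 to 47.4, all below the uninjured muscles on that scale. Of the 4, 2 were called lower, beside 19.8% of all genes. The marker sums were not recomputed with the common sum or the own total of reads. On these scales the median difference of all tested genes at day 3 was 0.51 and 0.40.

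The genes whose log2(FPKM + 1) over the 27 samples was most like that of each cathepsin differed between Ctsk and most of the others. These values share their libraries and the course over days, so Pearson's r is a description. Ctss was most like Lyz2 (r = 0.992), C1qc (0.989) and Mpeg1 (0.987), all genes of macrophages, and Ctsh like C3ar1 (0.980), Clec12a (0.979) and Adgre1 (0.978). Ctsk was most like the collagen genes Col1a1 (0.969), Col1a2 (0.964) and Col5a2 (0.959). Without the pair these values moved by little, to 0.991 for Ctss with Lyz2, 0.975 for Ctsh with C3ar1 and 0.967 for Ctsk with Col1a1.

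With the group means removed, so that only differences between muscles of 1 group remain, Ctsk was again most like Col1a1 (0.874, and 0.875 without the pair), Col5a2 (0.864 and 0.879) and Fn1 (0.861 and 0.877). Ctss was then most like Ms4a7 (0.965, and 0.918 without the pair) and Lyz2 (0.964 and 0.917), and Ctsd like Hexa, a lysosomal hexosaminidase (0.962 and 0.868). Ctsl was most like Lgmn both over all samples (0.959) and with the means removed (0.928, and 0.858 without the pair). Ctsb, Ctsc and Ctsa each had Msr1, a scavenger receptor of macrophages, among their 3 most similar genes over all samples (0.980, 0.968 and 0.966), and Ctsz was closest to Cyba (0.984), a subunit of the phagocyte oxidase.

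Ctsf was the least tied to any gene, with 0.843 for Stard7, and was negatively related to each of the other 9 cathepsins over the 27 samples (-0.743 to -0.339). With the group means removed and the pair left out, its r with the other 9 ran from -0.125 to 0.472. Among the other pairs of cathepsins the lowest r was 0.185, between Ctsk and Ctsd. Ctsk had at most 0.766 with any other member (Ctss), and Ctsd had 0.649 with Ctss, whereas Ctss had 0.971 with Ctsh, and Ctsa 0.965 with Ctsb.

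**Figure D4:**
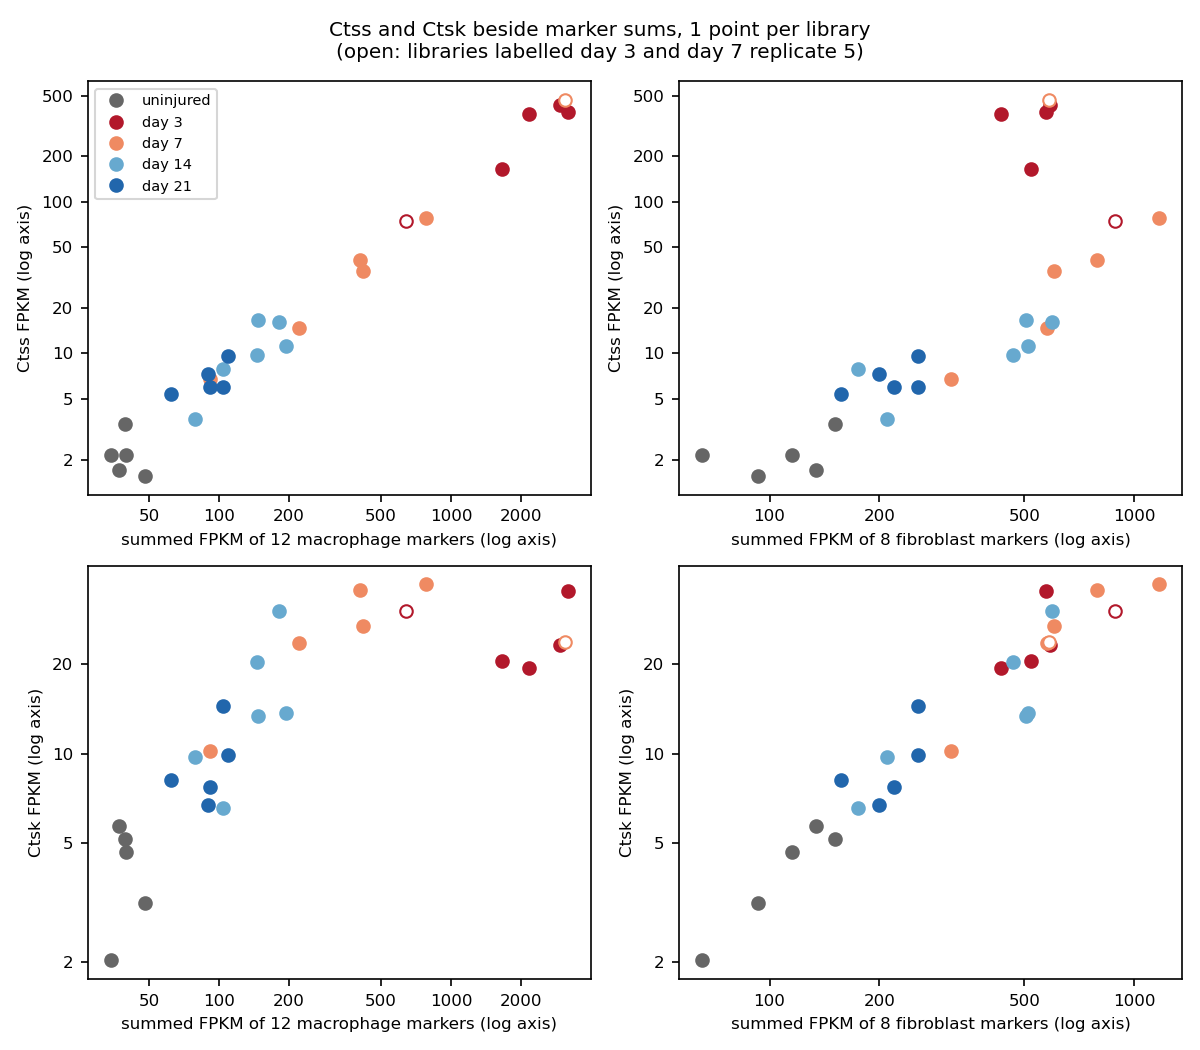
FPKM of Ctss (top) and Ctsk (bottom) against the summed FPKM of 12 macrophage markers (left) and 8 fibroblast markers (right), on log axes, with 1 point for each of the 27 libraries coloured by group; open points are the pair labelled replicate 5 at days 3 and 7. Day 3 muscles reach 3199 FPKM of macrophage markers at 19.3 to 34.98 FPKM of Ctsk, within the day 7 range of Ctsk, and the library labelled day 7 replicate 5 has 3086 FPKM of macrophage markers and 468 of Ctss.

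The rest of the lysosomal pathway was read from 8 lists with 107 genes, of which 105 were in the table and 85 passed the filter. Over the 85, 48 were called higher and 5 lower at day 3 (50 and 3 without the pair), 29 and 4 at day 7 (21 and 4), 5 and 4 at day 14 (13 and 7) and 1 and 3 at day 21 (1 and 5), beside the shares of all genes given above for each day. With FPKM rescaled to a common sum the counts were 69 and 0 at day 3 and 59 and 0 at day 7. They were 5 and 0 at day 14 and 0 and 0 at day 21. Over all 14630 tested genes that scale called 6868 higher and 322 lower at day 3, and 6304 and 209 at day 7. It called 1678 and 107 at day 14, and 42 and 7 at day 21. Few genes of any kind were called lower on that scale, so nothing is read from the counts of 0. On the deposited scale, single libraries moved the smaller counts of higher calls. Day 14 had 3 without uninjured replicate 2 or day 14 replicate 4 and 9 without day 14 replicate 3 or the library labelled day 7 replicate 5, and day 21 had 0 without uninjured replicate 4 or 5 or day 21 replicate 2 and 2 without day 21 replicate 5. The median difference over the 85 on these days was 0.57, 0.31, 0.05 and 0.04, against 0.01, 0.03, 0.02 and 0.01 over all tested genes (log2(FPKM + 1)). The lists were chosen with earlier results known. Adjusted p-values below are from limma with Benjamini-Hochberg adjustment over all tested genes, and differences are on the log2(FPKM + 1) scale with their standard error.

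Of 13 other cathepsin genes, 2 passed the filter. Ctsw, which cytotoxic lymphocytes express, rose at day 3 by 0.81 ± 0.32 (adjusted p = 0.0425), from 0.0831 ± 0.133 to 1.05 ± 0.954 FPKM (SD, n = 5 each), and this call was lost without the pair (adjusted p = 0.156), when Ctsw was instead called at day 14 (0.80 ± 0.29, adjusted p = 0.047). Ctso differed by 0.18 ± 0.11 (adjusted p = 0.183). The other 11 were low or listed at 0, among them Ctse at no more than 0.239 FPKM in any library and Ctsg, the serine protease of neutrophil granules, at no more than 0.0360.

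Of the 6 other peptidases of the lysosome, 5 rose at day 3, beside 23.4% of all genes, and 4 at day 7, beside 15%. Without the pair 5 and 3 rose, beside 23.4% and 12.5%, and the call of Napsa at day 7 was lost (adjusted p = 0.101). Lgmn, the asparaginyl endopeptidase that cleaves cathepsins to their split form, went from 13.1 ± 1.30 to 145 ± 63.2 FPKM at day 3, a difference of 3.22 ± 0.46 (adjusted p = 7.67e-06), and 1.98 ± 0.44 at day 7 (adjusted p = 0.00202). Scpep1, a serine carboxypeptidase, rose by 2.25 ± 0.33 (adjusted p = 1.24e-05) and Prcp, a prolylcarboxypeptidase, by 1.56 ± 0.25 (adjusted p = 3.49e-05). Napsa, an aspartic protease like Ctsd, rose by 1.53 ± 0.29 (adjusted p = 0.000197) to 2.43 ± 1.05 FPKM, and Dpp7, a dipeptidyl peptidase, by 0.52 ± 0.20 (adjusted p = 0.0327). Tpp1, a tripeptidyl peptidase, was at 11.99 ± 1.48 and 12.7 ± 2.56 FPKM, a difference of 0.07 ± 0.14 (adjusted p = 0.729). It was called higher with the common sum (0.83, adjusted p = 0.00774), where the median of all tested genes was 0.51. At day 14 Prcp alone of the 6 was called (0.74 ± 0.24, adjusted p = 0.0317), and at day 21 the adjusted p of the 6 was 0.24 or more. Without the pair Lgmn was also called at day 14 (1.19 ± 0.28, adjusted p = 0.00457), and its adjusted p at day 21 was 0.0632.

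Of 18 genes of cathepsin inhibitors and related serpins, 9 passed the filter and 5 rose at day 3, beside 23.4% of all genes. Cstb, the inhibitor of cysteine cathepsins inside the cell, went from 15.7 ± 3.33 to 118 ± 57.0 FPKM (2.68 ± 0.38, adjusted p = 7.67e-06). Cst3, which encodes the secreted cystatin C, was the most abundant gene of this list, at 510 ± 59.6 FPKM in uninjured muscle and 383 ± 47.2 at day 3 (-0.41 ± 0.25, adjusted p = 0.181). With FPKM rescaled to a common sum this difference was 0.41 (adjusted p = 0.122), against 0.51 for the median of all tested genes. Ctla2a, which resembles the propeptide of cathepsin L, rose by 0.99 ± 0.26 (adjusted p = 0.00344). Cst6 differed by -0.45 ± 0.32 (adjusted p = 0.275).

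The serpins of this list mainly block serine proteases. Serpina3n, which blocks several of them, rose by 2.92 ± 0.38 at day 3 (adjusted p = 2.87e-06). Serpina3g, which is known to block cysteine cathepsins too, rose by 1.05 ± 0.23 (adjusted p = 0.00078), to 1.25 ± 0.980 FPKM. Serpinb1a, an inhibitor of neutrophil serine proteases, rose by 3.81 ± 0.51 at day 3 (adjusted p = 3.64e-06) and was the 1 gene of the 85 called higher at day 21, by 2.12 ± 0.51 (adjusted p = 0.0206), with 1.18 ± 0.844 FPKM in uninjured muscle and 8.12 ± 2.28 at day 21. Its call at day 21 was lost without the filter on low values, with the common sum (2.13, adjusted p = 0.142), with each library's own total of reads (2.14, adjusted p = 0.0702) and with voom (adjusted p = 0.125). Serpinb6a was not called at day 3 (0.30 ± 0.26, adjusted p = 0.366) and was called at day 7 (0.83 ± 0.25, adjusted p = 0.0145) and day 14 (0.80 ± 0.25, adjusted p = 0.0245). Serpinb9 differed by -0.15 ± 0.17 at day 3 (adjusted p = 0.511).

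Of the hydrolases and their activators, 22 of 28 tested rose at day 3 and 2 fell (23 and 1 without the pair), with a median difference of 1.13. Of all genes, 23.4% rose and 19.8% fell (23.4% and 19.7% without the pair). The largest differences were in Lipa, the acid lipase that releases cholesterol and fatty acids (2.48 ± 0.38, adjusted p = 1.92e-05), and Npc2, which carries cholesterol out of the lysosome (1.997 ± 0.30, adjusted p = 1.24e-05). The genes that fell were Smpd1, the acid sphingomyelinase (-0.88 ± 0.17, adjusted p = 0.000207), and Gaa, the acid glucosidase that degrades glycogen (-0.46 ± 0.18, adjusted p = 0.0367, and 0.0923 without the pair). With FPKM rescaled to a common sum these differences were -0.09 and 0.35, against 0.51 for the median of all tested genes, and neither gene was called. Smpd1 was still lower at day 14 (-0.66 ± 0.16, adjusted p = 0.00644), and at day 21 its difference was -0.43 ± 0.17 (adjusted p = 0.156).

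Of the 10 genes of lysosomal sorting, 4 rose at day 3, beside 23.4% of all genes. Limma called 0 lower, beside 19.8%, with 0 lower also at an unadjusted p under 0.05. M6pr, the smaller mannose 6-phosphate receptor, rose by 0.96 ± 0.21 (adjusted p = 0.000578) and Gga2, a coat adaptor at the Golgi, by 0.83 ± 0.20 (adjusted p = 0.00127). Gnptg, a subunit of the enzyme that adds the tag, differed by -0.19 ± 0.18 (adjusted p = 0.42) and Scarb2, the receptor for acid glucosylceramidase, by -0.12 ± 0.17 (adjusted p = 0.616).

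Of the 9 genes of the lysosomal membrane, 2 rose at day 3 and 1 fell, beside 23.4% and 19.8% of all genes. These counts are near or below those shares, so nothing is read from them. The median difference was -0.04. Cd63 rose by 1.52 ± 0.25 (adjusted p = 3.49e-05) and Lamp2 by 0.70 ± 0.12 (adjusted p = 7.02e-05), and Laptm4b fell by 0.66 on this scale (adjusted p = 0.000472). With the common sum the difference of Laptm4b at day 3 was 0.12, below the median of 0.51 for all tested genes, and it was not called. Laptm4b was called lower at all 4 times, with -0.74 ± 0.14 at day 21 (adjusted p = 0.00432), when Npc1, which exports cholesterol, was also lower (-0.74 ± 0.20, adjusted p = 0.0374). With the common sum these were -0.55 and -0.56 at day 21, and neither was called. The difference between the lists was not tested.

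Of 18 genes of the V-ATPase, the pump that acidifies the lysosome, 8 rose at day 3 and 1 fell (10 and 0 without the pair). Of all genes, 23.4% rose and 19.8% fell (23.4% and 19.7% without the pair). Tcirg1 and Atp6v0d2, subunits known from osteoclasts and macrophages, rose by 2.53 ± 0.35 (adjusted p = 5.1e-06) and 2.01 ± 0.32 (adjusted p = 3.1e-05), the latter from 0.0624 ± 0.0464 to 3.75 ± 2.30 FPKM. Atp6v1g1, at 219 ± 34.8 FPKM in uninjured muscle, differed by -0.32 ± 0.22 (adjusted p = 0.263, and 0.51 with the common sum, adjusted p = 0.0359) and Atp6v1d by -0.29 ± 0.15 (adjusted p = 0.131). Atp6v0a2, named after its values were seen, was called lower at day 3 and completes the 3 genes called lower at day 21, with Laptm4b and Npc1. Its difference at day 3 was -0.28, and 0.40 with the common sum, where the median of all tested genes was 0.51.

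Of the MiT/TFE factors, 3 of 4 passed the filter. Tfe3 rose at day 3 from 1.27 ± 0.198 to 2.74 ± 0.617 FPKM (0.71 ± 0.14, adjusted p = 0.000272), Tfeb fell from 16.4 ± 3.01 to 11.8 ± 1.11 FPKM (-0.43 ± 0.15, adjusted p = 0.023, but 0.34 with the common sum, adjusted p = 0.104), and Mitf differed by -0.27 ± 0.12 (adjusted p = 0.0848). The median of all tested genes at day 3 with the common sum was 0.51. At day 7 the calls of Tfe3 and Tfeb had adjusted p of 0.0465 and 0.0467 and both were lost without the pair (0.129 and 0.12). Levels of these transcripts say nothing of where the proteins lie in the cell.

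**Figure D5:**
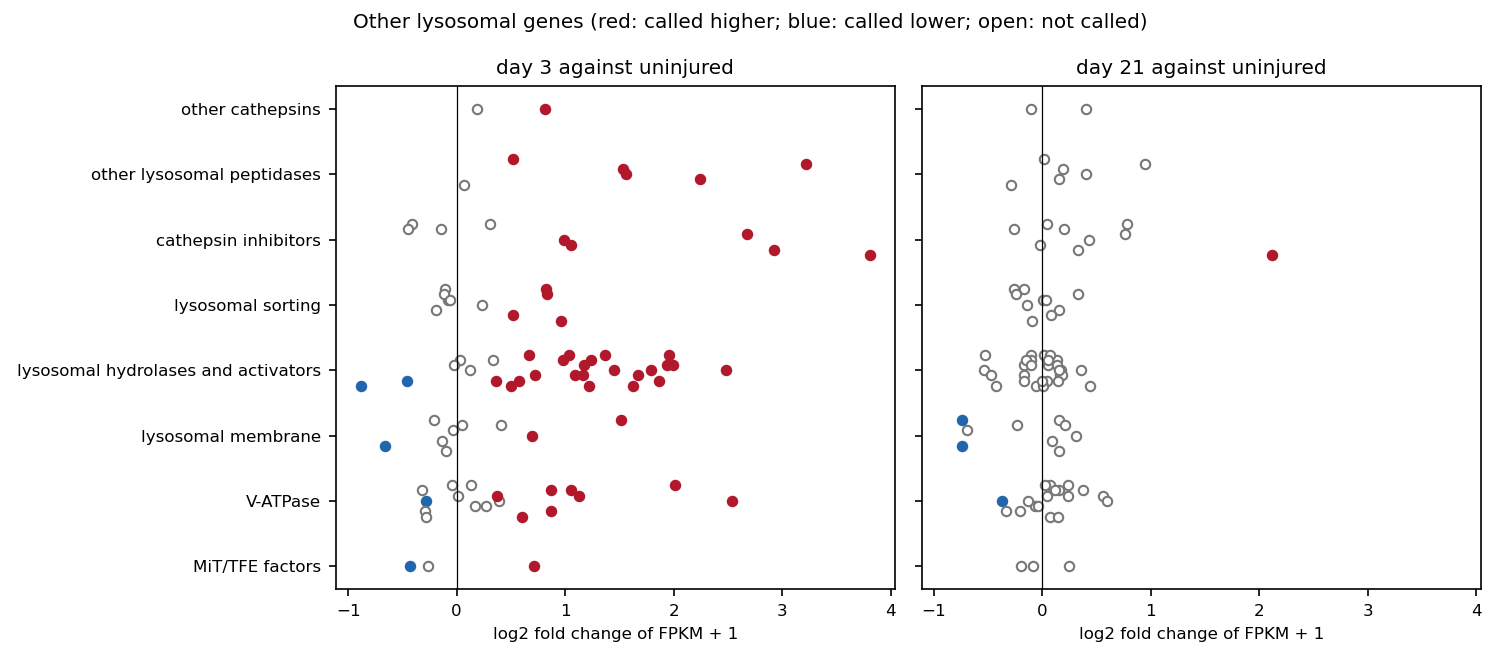
Difference from uninjured muscle at day 3 (left) and day 21 (right) of the 85 tested genes of the lysosomal lists, as the log2 fold change of FPKM + 1; 1 point is 1 gene, red called higher, blue called lower, open not called (limma, adjusted p under 0.05). At day 3, 48 genes are red and 5 blue, and at day 21, 1 (Serpinb1a, 2.12) is red and 3 are blue.

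Reads were not assigned by strand, so genes that overlap a cathepsin gene can share reads with it. By the positions in the table, which equal those of GENCODE M21 (GRCm38) for 9 of the 10 (Ctsf differs by a few bases), Ctsa overlaps Neurl2 and Pltp, Ctsb overlaps Fdft1 and Ctsz overlaps Nelfcd. The highest FPKM in any library was 37.5 for Neurl2, 41.4 for Pltp, 30.9 for Fdft1 and 15.6 for Nelfcd. The genes that overlap Ctsc, Ctsd, Ctsl and Ctss stayed at or below 0.549 FPKM, and Ctsf, Ctsh and Ctsk overlap none.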

How the data were processed

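RNA sequencing of 27 tibialis anterior muscles was analysed from 1 table of gene FPKM deposited by the authors, which also holds gene length, position and name. Per the submitters' processing notes reads were aligned with HISAT2 2.0.5 and counted with featureCounts 1.5.0-p3. How the authors normalized the FPKM is not given in the sources used here. FPKM multiplied by gene length fell on whole reads for 100% of values (tolerance 0.01 read), for totals of 14376395 to 24436763 reads per sample (median 17398586), and the denominators within the FPKM were 0.747 to 1.48 times those totals, with means of 0.782, 1.25, 1.18, 1.04 and 0.897 for uninjured muscle and days 3, 7, 14 and 21. A low level therefore rests on few reads, and the scale of a library is itself an estimate.

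The 54532 genes were reduced to the 14630 with an FPKM of 0.5 or more in 5 or more samples. Log2(FPKM + 1) was fitted with limma 3.58.1 (R 4.3.3), all 27 samples in 1 fit with a mean per group and a variance trend. Tests were two-sided, with Benjamini-Hochberg adjustment over all tested genes of a comparison and a threshold of 0.05. The fit was tested on simulated data. Groups came from the sample titles. The labels do not say more of the origin of the replicates, so p-values measure the spread between these samples. If muscles of the same mouse are among the replicates, they are not independent and the p-values could be too small. The 4 comparisons with uninjured muscle share those samples.

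The cathepsins, the 8 lists of lysosomal genes and the marker lists were chosen with earlier results of these data known. All cathepsins and any gene of the lists of other cathepsins, peptidases, inhibitors and MiT/TFE factors could be named. Of the other lists the 2 genes with the highest and the 2 with the lowest difference at day 3 were named, and for each cathepsin the 3 genes most like it. Csta2 and Csta3 had no row. Alternatives were pseudocounts of 0.1 and 0.5, no filter or one at 1 FPKM, 3 other scalings, no trend, voom weights on reads recovered from FPKM, a fit of only the groups compared, blocks by replicate number or letter, leaving out each sample, and leaving out both libraries labelled replicate 5 at days 3 and 7. Promoter windows came from RefSeq tables (GRCm38.p6), matched by symbol for 8 of 10 genes. Python 3.11.15 with pandas 2.3.3, numpy 2.4.6 and matplotlib 3.10.9 was used for summaries and figures.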

Additional observations from a re-analysis of the deposited data

Results flagged for a closer look

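In 9 of the 50 sets formed by 1 cathepsin in 1 group, the highest or lowest muscle stood apart from the rest of its group on the log2(FPKM + 1) scale by Dixon's criterion at 95%, which chance meets in about 1 of 20 sets. At day 7 the library labelled replicate 5, which lay nearest to the mean of day 3 over all genes, was the high one for 4 genes, with 63.83 FPKM of Ctsa, 475.1 of Ctsb, 25.01 of Ctsc and 748 of Ctsd. Also at day 7, replicate 6 was the low one for Ctsk, at 10.19 FPKM. At day 14, Ctsh was low in replicate 6, at 1.113 FPKM, and Ctsl was high in replicate 2, at 30.1 FPKM. At day 21, replicate 5 was the low one for Ctsb, at 49.53 FPKM, and for Ctsl, at 12.08 FPKM.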

How the results depend on the processing

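Every difference of a cathepsin from uninjured muscle that limma called kept its sign under each of the 40 alternatives. Of the 1600 values so recomputed for single cathepsins, 40 moved by more than the spread between replicates, 19 of them with the common sum and 13 with each library's own total of reads, and the cause was not tested. At day 3 and day 7 the count of cathepsins called higher stayed within 1.5 times its value. It reached that limit at day 7 in a fit of only the 2 groups compared. There 4 were called, without Ctsc and Ctsz, and 1434 of all 14630 genes, against 2189 in the main fit. With no filter 5 were called at day 7, without Ctsc. Leaving out 1 library at a time gave 8 to 9 on day 3, and 5 to 7 on day 7.

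Brackets give the number of all tested genes called higher, of 14630 unless stated. The 2 cathepsins called higher at day 14 (1320) became 1 with no filter (962 of 31179) and with the common sum (1678). They also became 1 with quantile normalization (1007) and with voom (1164). In a fit of only the 2 groups compared (1870) they became 3 (with Ctsl), and leaving out 1 library gave 1 to 2. At day 21 the count of 0 (255) became 2 in a fit of only the 2 groups compared (757). It became 1 with the replicate number (390) or the letter of the sample name (558) as a replicate block, and leaving out 1 library gave 0 to 1. Of the lysosomal genes, 29 were called higher at day 7 (2189), against 59 with the common sum (6304) and 54 with each library's own total (5348). The 5 at day 14 (1320) became 9 with a pseudocount of 0.1 (1697), 3 with no filter (962 of 31179) and 9 with the own total (2275). They became 15 with only the 2 groups compared (1870). With the replicate number (1643) and the letter (1678) as a replicate block they became 9 and 10. Without the pair they became 13 (1698 of 14416), and leaving out 1 library gave 3 to 9. The 1 at day 21 (255) became 0 with no filter (128 of 31179), with the common sum (42), with the own total (106) and with voom (143). It became 6 with only the 2 groups compared (757) and 2 with the letter as a replicate block (558). Leaving out 1 library gave 0 to 2. The cause of these changes was not tested.

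Over all genes the split of calls at day 14 was 1320 higher and 1649 lower, against 1678 and 107 with the common sum and 2275 and 288 with the own total. At day 21 it was 255 and 247, against 42 and 7 and 106 and 27. With the own total, day 3 had 6534 and 618 (3417 and 2899 on the deposited scale) and day 7 had 5348 and 424 (2189 and 2107). Deviations of samples with the same replicate number correlated by -0.521 to 0.566 over genes (median -0.003). For samples with different numbers the range was -0.491 to 0.609 (median 0.003). The median was 0.020 for the same letter and 0.001 for different letters. The ranges are wide, so these values cannot tell whether some samples share an origin. Depth limits the uninjured levels of Ctss, Ctsk and Ctsh, which rest on few reads.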
